A study of Mus musculus with 12 samples.

Results

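The genes described here carry, receive and break down glycine. They are 10 genes chosen by symbol: the transporters Slc6a5 and Slc6a9, the receptor subunits Glra1, Glra2, Glra3 and Glrb, the receptor anchor Gphn, and Gldc, Amt and Gcsh of the glycine cleavage system. All 10 were present once each among the 38924 genes of the deposited tables, and all 10 passed the filter on low counts that left 17980 genes to test. RNA was sequenced from whole spinal cord of 12 mice aged 8 weeks. Of these, 6 were wild type (WT) and 6 carried 1 copy of the Gars allele P278KY (P278KY mice), and each genotype had 3 females and 3 males. Every mouse had a mixed B6J;CAST strain background per the labels. Gars encodes glycyl-tRNA synthetase, the enzyme that joins glycine to its tRNA, and dominant mutations of it cause an inherited neuropathy of motor and sensory axons. The allele was present in every cell of the mutants and was not limited to a cell type. Mice are named by genotype, sex and the mouse number in their label. The study's stated question was which transcripts differ between WT and P278KY cord.

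Glycine is the main fast inhibitory transmitter of the spinal cord, beside GABA. Inhibitory interneurons take it up through GLYT2 (Slc6a5), load it into vesicles and release it onto motor neurons and other neurons. There it opens chloride channels built from alpha subunits (Glra1, Glra2, Glra3) and the beta subunit (Glrb), which gephyrin (Gphn) holds at the synapse. Astrocytes clear it through GLYT1 (Slc6a9), and mitochondria break it down with the cleavage system.

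The libraries held 26982140 to 39339999 expected counts. Gars, the mutated gene, was at 118 to 138 counts per 1000000 (CPM) in WT and 138 to 145 CPM in P278KY mice (log2 change 0.13, SE 0.03, edgeR adjusted p = 0.046), and its counts do not separate the mutant allele. Some libraries stood apart in the summed level of genes typical of skeletal muscle or sensory ganglia, called muscle and ganglion RNA here. Where this RNA came from was not tested. The summed level of 8 skeletal muscle genes was 1060 to 7560 CPM in mice 1, 2, 3 and 4 and 87.7 to 256 CPM in the other 8. That of 8 sensory ganglion genes was 23.8 to 64.2 CPM in mice 7, 10 and 11. In the other 9 it was 1.84 to 3.32 CPM in WT and 7.83 to 10.2 CPM in P278KY mice, without overlap. Of the 7 ganglion genes tested, 1 was called higher in P278KY mice, and their median log2 change was -0.32. Mice 1, 2, 3 and 4 were all females, so muscle RNA was partly confounded with sex. A fit without them kept only WT female 10 and P278KY female 9 among the females. The summed level of motor neuron markers (8 of 9 listed genes found) was 169 to 259 CPM in WT and 130 to 149 CPM in P278KY mice, and 6 of the 8 were called lower. The summed level of 6 Schwann cell markers was 1470 to 2560 CPM in WT and 429 to 1540 CPM in P278KY mice, and 2 of the 6 were called lower. That of 6 markers of meninges and fibroblasts was 400 to 1030 CPM in the WT group and 342 to 456 CPM in the mutants, with 1 of the 6 called lower. The 5 markers of neurons of all kinds were at 2420 to 2950 CPM in WT and 2510 to 2730 CPM in P278KY mice, and 1 of the 5 was called higher. The part of these marker levels in the results below was not tested. Results were also computed without the libraries highest in muscle or ganglion RNA. In RNA from whole tissue, fewer cells of a type and less RNA per cell cannot be told apart.

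Across the 10 genes, Glra2 rose in P278KY cord and no other member passed the test. The test was edgeR's quasi-likelihood test with sex as a covariate and Benjamini-Hochberg adjustment over all 17980 genes at 0.05. It called 956 of the 17980 genes, 5.32%, of which 425 (2.36%) were higher and 531 (2.95%) lower, so 1 member of 10 lies near that background. At an unadjusted p under 0.05 stood 4 members, Slc6a9, Glra2, Glra3 and Gldc, against 3637 genes (20.2%) in all. The median log2 change of the 10 members was 0.05, against 0.00 over all tested genes. The changes were positive for 6 members and negative for 4.

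**Figure D1:**
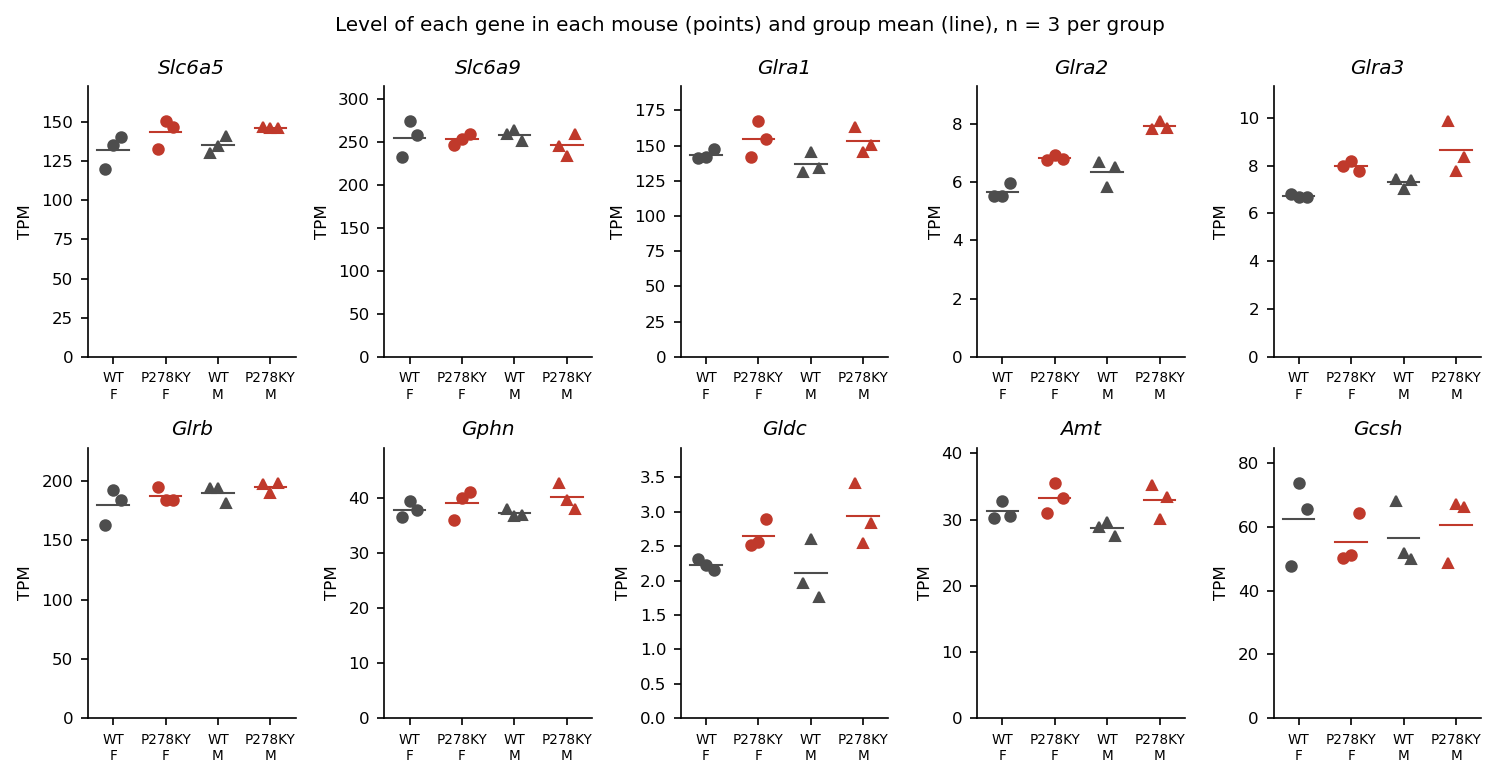
TPM (transcripts per 1000000) of the 10 genes in each of 12 mice (points; circles are females, triangles males) with the mean of each group of 3 (lines), each panel on its own axis from 0. Glra2 and Glra3 were higher in every P278KY mouse than in any WT mouse, and Gcsh fell into an upper and a lower range within both genotypes. On TPM, 4.56% of all tested genes were likewise higher in every P278KY mouse.

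In level, the members spanned about 2 orders of magnitude. Levels are compared between genes in TPM, which are scaled by transcript length. Slc6a9 was the highest, with a median of 256 TPM over 12 mice (232 to 274), followed by Glrb at 191 TPM (163 to 198), Glra1 at 146 TPM (131 to 167) and Slc6a5 at 141 TPM (120 to 150.4). Glra1 and Slc6a5 overlapped, with Glra1 above Slc6a5 in 10 of 12 mice. Gcsh was at 58.1 TPM (47.8 to 73.7), Gphn at 38.0 TPM (36.0 to 42.7) and Amt at 30.8 TPM (27.6 to 35.6). Gcsh was above Gphn, and Gphn above Amt, in all 12 mice, although the ranges of Gphn and Amt nearly met. The low members were Glra3 at 7.60 TPM (6.67 to 9.85), Glra2 at 6.73 TPM (5.51 to 8.09) and Gldc at 2.52 TPM (1.76 to 3.42). Glra3 and Glra2 overlapped, with Glra3 above Glra2 in 11 of 12 mice.

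The promoters of 3 subunits of the glycine receptor are shown. They are Glra2, the member that rose, Glra3, the subunit next to it in level, and Glrb, the abundant beta subunit. Each is the 250 bases before the start of the RefSeq transcript (GRCm38.p6), 5′ to 3′ on the gene's strand, with every CG dinucleotide in capitals.
Glra2 (chrX:165327394-165327643, minus strand): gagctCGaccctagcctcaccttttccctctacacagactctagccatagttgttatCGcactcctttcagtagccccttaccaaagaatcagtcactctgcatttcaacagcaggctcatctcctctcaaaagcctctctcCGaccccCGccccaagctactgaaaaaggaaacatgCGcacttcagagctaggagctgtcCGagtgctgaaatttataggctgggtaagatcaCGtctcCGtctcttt
Glra3 (chr8:55940168-55940417, plus strand): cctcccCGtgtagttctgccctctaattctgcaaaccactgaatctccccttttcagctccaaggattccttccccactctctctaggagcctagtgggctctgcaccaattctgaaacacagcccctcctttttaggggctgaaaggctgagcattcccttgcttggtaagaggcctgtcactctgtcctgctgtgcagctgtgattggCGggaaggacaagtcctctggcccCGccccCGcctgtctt
Glrb (chr3:80913661-80913910, minus strand): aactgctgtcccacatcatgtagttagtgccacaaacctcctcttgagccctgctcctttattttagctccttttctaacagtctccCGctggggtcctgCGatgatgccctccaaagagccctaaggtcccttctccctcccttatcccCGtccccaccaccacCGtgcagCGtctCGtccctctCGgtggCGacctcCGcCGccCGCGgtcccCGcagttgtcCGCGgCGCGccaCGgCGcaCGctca
Glrb had 20 CG dinucleotides, Glra2 had 8 and Glra3 had 4, against a median of 6 over 32841 promoter windows of the same length. RefSeq windows matched 9 of the 10 members, all but Glra1, with 12 windows in all. The motif TGATGNAA, a site form for ATF4 with its partners, was in none of the 12 on either strand and in 3.45% of all windows. TGACGTCA, the cAMP response element, which reads the same on both strands, was also in none of the 12, against 1.55% of all windows. TATAAA, searched on both strands as well, was in 1 of the 12, against 12.4% of all windows: Glra2 held it on the strand opposite to the gene, so that it reads as its reverse complement in the sequence above. These are descriptions of the letters in the window.

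Among the alpha subunits, which bind glycine, Glra1 made up most of the transcripts. Glra1 is the subunit of the adult synaptic receptor, and its mutations cause startle disease. As a share of the summed TPM of the 3 alpha genes, Glra1 held 91.5% ± 0.823 in WT and 90.7% ± 0.667 in P278KY mice (SD, n = 6 each). Glra2 held 3.93% ± 0.447 and 4.37% ± 0.445, and Glra3 held 4.58% ± 0.387 and 4.91% ± 0.353. The ranges of all 3 shares overlapped between genotypes.

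Glra2 encodes the alpha subunit that predominates before birth and declines as Glra1 takes over. Its gene lies on chromosome X (165129017 to 165327393, minus strand, GENCODE M21 on GRCm38). It was at 5.54, 5.51 and 5.96 TPM in WT females 1, 2 and 10 and at 6.77, 6.93 and 6.81 TPM in P278KY females 3, 4 and 9. In males it was at 6.69, 5.82 and 6.51 TPM in WT mice 5, 11 and 12 and at 7.84, 8.09 and 7.86 TPM in P278KY mice 6, 7 and 8. Every mutant lay above every WT mouse on this scale, and males lay above females of their genotype in all but WT male 11. On TPM the same separation upward was found for 820 of the 17980 tested genes (4.56%).

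On CPM, which take account of library size by TMM factors and not of length, Glra2 was at 9.73 ± 0.873 in WT and 11.3 ± 0.822 in P278KY mice (SD, n = 6 each). There the genotypes overlapped across sexes, with WT males at 9.52 to 10.9 CPM and P278KY females at 10.5 to 10.8 CPM, but not within a sex. WT females were at 8.71 to 9.57 CPM, and P278KY males at 11.8 to 12.2 CPM. The rise was 1.17-fold (log2 change 0.22, SE 0.05, 95% interval 0.11 to 0.33, edgeR adjusted p = 0.0268). The exact two-sided permutation p of Glra2 over all splits of 6 against 6 mice was 0.0195 on CPM and 0.00216 on TPM. The latter is the smallest these splits can give, and neither takes account of sex. Other members had like values in this permutation test. On CPM, p was 0.0195 for Gldc, 0.0216 for Glra3 and 0.0346 for Slc6a9, and 0.0823 to 0.965 for the rest. On TPM it was 0.00216 for Glra3, 0.00866 for Gldc, 0.0195 for Slc6a5 and 0.0216 for Glra1 and Amt. The rest lay at 0.0996 to 0.736 on TPM. The values of Glra2 rest on 257 to 476 counts per library.

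The call of Glra2 lay close to the threshold. It was lost in 7 of the 12 fits with 1 mouse left out, with an edgeR adjusted p of 0.0517 to 0.0677: those without WT female 2, P278KY female 3, P278KY female 4, P278KY male 6, P278KY male 7, P278KY male 8 or WT male 11. The log2 change was 0.20 without mice 1, 2, 3 and 4 (adjusted p = 0.163) and 0.21 without mice 7, 10 and 11 (adjusted p = 0.156), against 0.22 over all 12 mice, and it was not called in either fit.

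Glra3 encodes an alpha subunit known from the superficial dorsal horn, where it takes part in pain inhibition. It was at 6.80, 6.68 and 6.67 TPM in WT females 1, 2 and 10 and at 7.98, 8.19 and 7.76 TPM in P278KY females 3, 4 and 9. In males it was at 7.45, 7.02 and 7.41 TPM in WT mice 5, 11 and 12 and at 9.85, 7.77 and 8.36 TPM in P278KY mice 6, 7 and 8. The genotypes did not overlap on TPM. P278KY female 9 and P278KY male 7 were the lowest mutants, close above WT male 5, and P278KY male 6 was the highest. On CPM the ranges met, with 6.19 to 7.28 in WT and 6.98 to 8.86 in P278KY mice. The log2 change was 0.18 (SE 0.07, 95% interval 0.03 to 0.32), with an edgeR adjusted p of 0.16, so Glra3 did not pass. On log2(TPM + 1) values it passed in limma, with a log2 change of 0.22 (adjusted p = 0.0357). The median log2 change of the tested genes moved there from -0.003 to 0.062, and the calls from 425 higher and 531 lower to 1358 and 248. Values of 957 of the tested genes (5.32%) did not overlap between genotypes on TPM, and 820 of them (4.56%) were higher in P278KY mice. On CPM 671 genes (3.73%) did not overlap, and no member was among them.

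Glra1 itself had a lowest, median and highest value of 131, 141 and 148 TPM in WT and of 142, 153 and 167 TPM in P278KY mice, with overlap. Its log2 change was 0.06 (SE 0.04, 95% interval -0.03 to 0.14, edgeR adjusted p = 0.443). Motor neurons carry much of the receptor made from Glra1, and their markers were lower in the mutants, as given above, and their part in this value was not tested. The interval of Glra1 holds folds from 0.982 to 1.11.

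Glrb, which binds gephyrin and so ties the channel to the synapse, had a lowest, median and highest value of 163, 188 and 194 TPM in WT and of 184, 192 and 198 TPM in P278KY mice. WT female 1 was the low library, and the other WT mice overlapped with the mutants. The log2 change was -0.04 (SE 0.04, 95% interval -0.13 to 0.05, edgeR adjusted p = 0.63). Its sign turned on log2(TPM + 1), to 0.05. Glrb stood at 1.21 ± 0.0928 times the summed alpha TPM in WT and at 1.13 ± 0.0849 times in P278KY mice (SD, n = 6 each).

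Gphn encodes gephyrin, the scaffold of glycine and GABA receptors that also makes molybdenum cofactor. Its coefficient of variation in TPM was 2.89% over WT mice, the lowest of the 10 members there, and 5.96% over P278KY mice, where Glrb (3.29%), Slc6a9 (3.91%) and Slc6a5 (4.3%) varied less. Its mean was 63.7 ± 1.10 CPM in the WT group and 63.6 ± 2.94 CPM in the mutants (SD, n = 6 each; log2 change 0.00, SE 0.03, edgeR adjusted p = 0.991). The 95% interval was -0.08 to 0.07, which holds folds from 0.949 to 1.05.

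**Figure D2:**
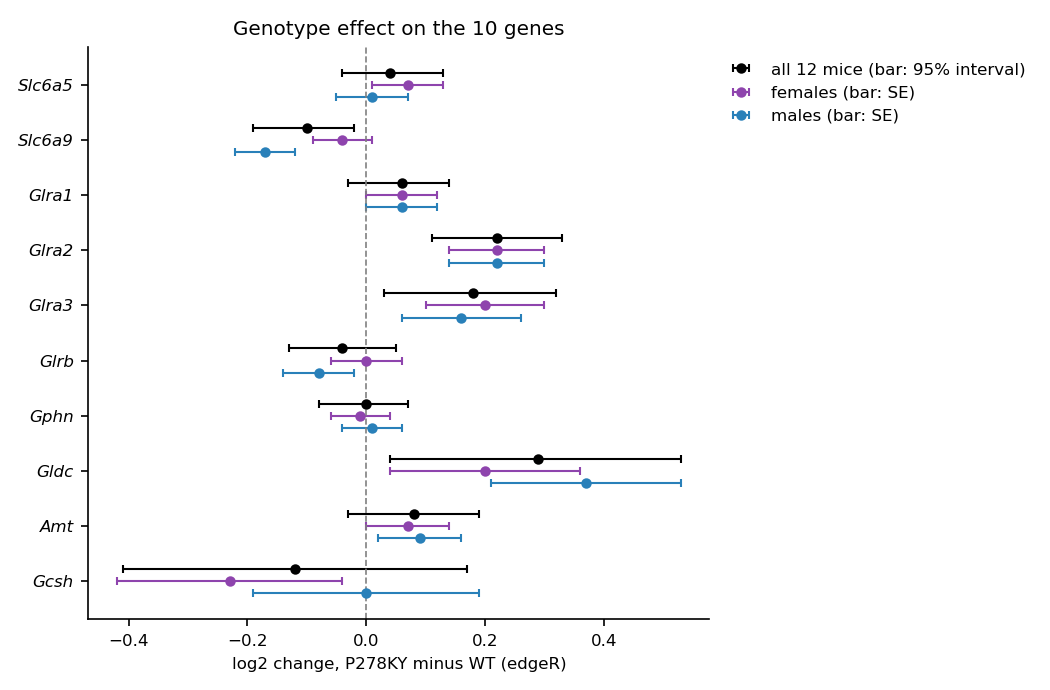
Log2 change of each gene between P278KY and WT mice from edgeR, over all 12 mice with sex as a covariate (black, bars are 95% intervals) and within females (purple) and males (blue, bars are SE). The intervals of Glra2, Glra3, Gldc and Slc6a9 leave out 0 before adjustment over all genes, and Gcsh has the widest interval, -0.41 to 0.17.

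Of the transporters, Slc6a5 (chromosome 7, 49910146 to 49963856, plus strand) refills inhibitory terminals and marks glycinergic neurons. Its lowest, median and highest values were 120, 135 and 141 TPM in WT and 132, 146 and 150.4 TPM in P278KY mice. The ranges overlapped, with WT female 1 and P278KY female 3 lowest in their genotypes. On CPM the means were 497 ± 29.4 and 512 ± 15.1 (SD, n = 6 each), with a log2 change of 0.04 (SE 0.04, 95% interval -0.04 to 0.13, edgeR adjusted p = 0.619).

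Slc6a9 (chromosome 4, 117834506 to 117875198, plus strand) encodes the carrier that astrocytes use to clear glycine and to set its level at excitatory synapses. Its 6 WT mice averaged 354 ± 17.2 CPM (SD, n = 6) and its 6 mutants 330 ± 13.7 CPM (SD, n = 6). The lowest mutant, P278KY male 7, was at 305 CPM and the lowest WT mouse, WT female 1, at 322 CPM, and the ranges overlapped. The log2 change was -0.10 (SE 0.04, 95% interval -0.19 to -0.02), and it did not pass (edgeR adjusted p = 0.16). Without WT female 1, the library with the most muscle RNA, Slc6a9 passed with a log2 change of -0.13 (adjusted p = 0.0197), and in limma voom with sample weights over all mice it passed with the same change (adjusted p = 0.0399). The summed level of 8 astrocyte markers was 6670 to 7370 CPM in WT and 7270 to 8320 CPM in P278KY mice, and 1 of the 8 was called higher. Slc6a9 overlaps B4galt2 (up to 1006 counts a library) and Ccdc24 (102 to 146 counts) on the other strand, and whether reads were counted by strand is not given in the sources used here.

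Within a mouse, Slc6a9 stood at 1.79 to 2.03 times Slc6a5 in TPM in WT and at 1.61 to 1.86 times in P278KY mice. The mean ratios were 1.93 ± 0.0955 and 1.73 ± 0.0909 (SD, n = 6 each), and the ranges overlapped slightly.

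The cleavage system splits glycine into carbon dioxide, ammonia and a 1-carbon unit for folate. Gldc is its glycine decarboxylase, Amt its aminomethyltransferase and Gcsh the lipoylated shuttle protein between them. In whole cord Gldc was far lower than its partners, at 0.0724 ± 0.00866 times Amt in TPM in WT and at 0.0843 ± 0.00812 times in P278KY mice (SD, n = 6 each). Gcsh stood at 1.98 ± 0.310 times Amt in WT and at 1.76 ± 0.337 times in P278KY mice.

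Gldc (chromosome 19, 30098447 to 30175429, minus strand) was at 2.32, 2.23 and 2.15 TPM in WT females 1, 2 and 10 and at 2.51, 2.56 and 2.89 TPM in P278KY females 3, 4 and 9. In males it was at 1.96, 2.61 and 1.76 TPM in WT mice 5, 11 and 12 and at 3.42, 2.54 and 2.84 TPM in P278KY mice 6, 7 and 8. The genotypes were apart except for WT male 11, which lay above P278KY females 3 and 4 and P278KY male 7. Gldc had the largest fitted change of the 10, 1.22-fold (log2 change 0.29, SE 0.11, 95% interval 0.04 to 0.53), and did not pass (edgeR adjusted p = 0.167). Its 92 to 249 counts per library were the fewest of the members.

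Amt (chromosome 9, 108296853 to 108302302, plus strand) had a lowest, median and highest value of 27.6, 30.0 and 32.9 TPM in WT and of 30.1, 33.3 and 35.6 TPM in P278KY mice. The ranges overlapped, and the log2 change was 0.08 (SE 0.05, 95% interval -0.03 to 0.19, edgeR adjusted p = 0.41).

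Gcsh (chromosome 8, 116981810 to 116993537, minus strand) differed more between mice of one genotype than between the genotypes. It was at 47.8, 73.7 and 65.5 TPM in WT females 1, 2 and 10 and at 50.3, 51.1 and 64.4 TPM in P278KY females 3, 4 and 9. In males it was at 67.9, 51.7 and 50.0 TPM in WT mice 5, 11 and 12 and at 48.6, 67.1 and 66.2 TPM in P278KY mice 6, 7 and 8. No mouse lay between 51.7 and 64.4 TPM, and 3 WT and 3 P278KY mice lay on each side. On CPM the upper mice were at 45.4 to 49.6 in WT and 43 to 43.9 in P278KY mice. The lower mice were at 33.7 to 36.6 CPM in WT and 31.7 to 33.5 CPM in P278KY mice. These ranges were read after the split was seen, and a genotype difference within them was not tested. The log2 change between genotypes was -0.12 (SE 0.13, 95% interval -0.41 to 0.17, edgeR adjusted p = 0.686), so a fold from 0.755 to 1.13 is within its interval. The mean transcript length that RSEM gave Gcsh, which moves with the isoforms counted, was 1405 to 1443 bases and did not split the mice in this way.

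**Figure D3:**
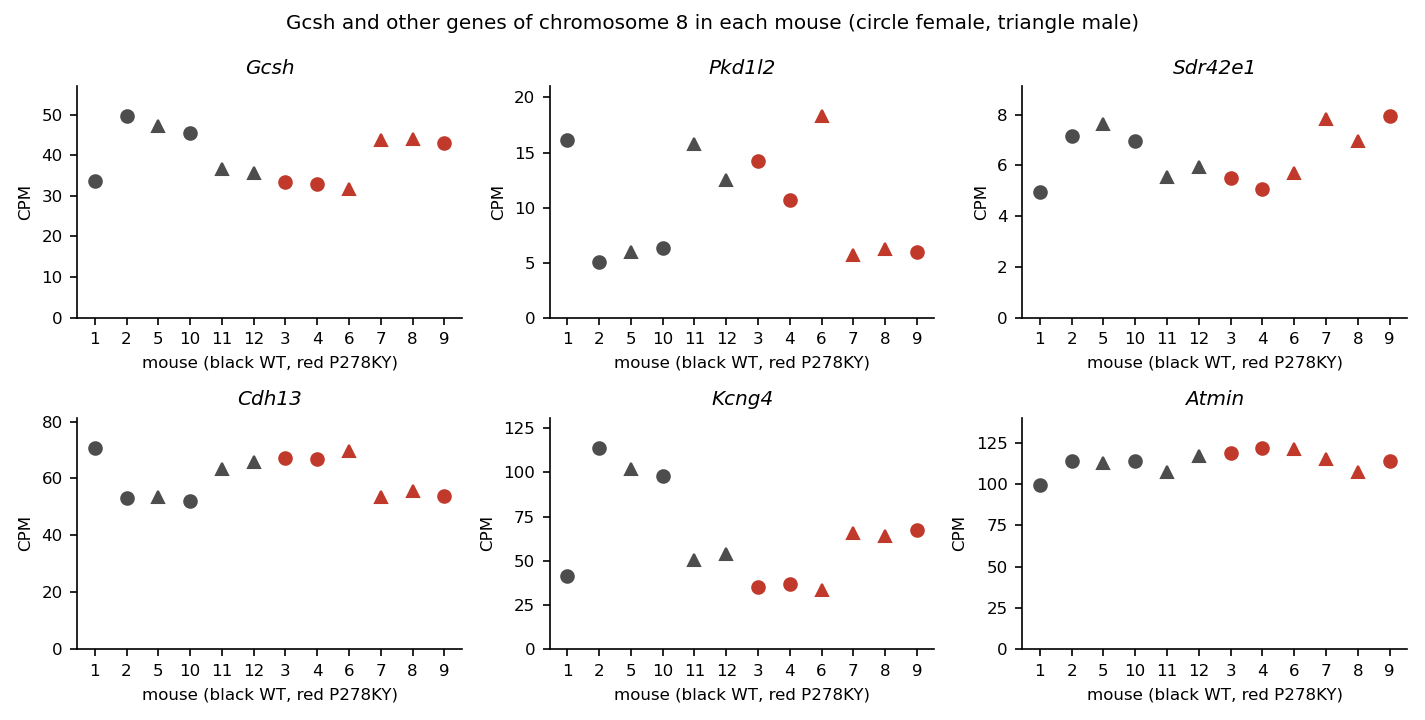
CPM of Gcsh and of 5 other genes of chromosome 8 in each mouse, WT mice in black and P278KY mice in red, axes from 0. Pkd1l2 and Cdh13 were high in the mice where Gcsh was low, such as WT female 1 and P278KY male 6, while Atmin, a close neighbour, was at 99.3 to 122 CPM without such a split.

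The genes most like Gcsh over the 12 mice lay beside it. They were chosen after the values of Gcsh were seen, by the size of Pearson's r of log2 CPM among tested genes with a mean of at least 1 CPM, as a description. Of the 10 with the largest r in size, 6 were on chromosome 8 and within 10 Mb of Gcsh, while chromosome 8 holds 5.21% of the tested genes. Beside Gcsh, they ran the same way for Kcng4 (r = 0.962), Psmd7 (0.898), Sdr42e1 (0.88) and Hsd17b2 (0.877) and the opposite way for Cdh13 (-0.967) and Pkd1l2 (-0.935). Pkd1l2, the neighbour upstream of Gcsh and a member of the polycystin family, had 16.1, 5.08 and 6.35 CPM in WT females 1, 2 and 10 and 14.2, 10.7 and 5.95 CPM in P278KY females 3, 4 and 9. In males it had 5.93, 15.8 and 12.5 CPM in WT mice 5, 11 and 12 and 18.3, 5.72 and 6.27 CPM in P278KY mice 6, 7 and 8. It was thus high in each mouse where Gcsh was low. Cdh13, the gene of T-cadherin, had 70.8, 53.1 and 52.2 CPM in WT females 1, 2 and 10 and 67.2, 66.9 and 53.8 CPM in P278KY females 3, 4 and 9. In males it had 53.5, 63.4 and 65.6 CPM in WT mice 5, 11 and 12 and 69.8, 53.3 and 55.6 CPM in P278KY mice 6, 7 and 8, again opposite to Gcsh. None of these 6 genes was called for genotype (edgeR adjusted p = 0.365 to 0.997). Kcng4 still differed by genotype within each range of Gcsh. Where Gcsh was high, Kcng4 was at 98.1 to 114 CPM in WT and 64 to 67.5 CPM in P278KY mice. Where Gcsh was low, it was at 41.4 to 53.7 CPM in WT and 33.3 to 36.9 CPM in P278KY mice. Its log2 change over all mice was -0.6, and the difference within ranges was seen afterwards and not tested. Atmin, another neighbour within 1 Mb, was at 99.3 to 122 CPM and showed no such split (r = -0.181). Other tested genes within 1 Mb followed Gcsh in part or hardly, from r = -0.741 for Cenpn to 0.75 for Cmc2, with Cdyl2 at -0.0102. The labels give the strain background only as B6J;CAST for every mouse, and its part in this pattern was not tested.

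By sex, no member was called in any test. High muscle RNA was found only in females, and its part in the tests by sex was not tested. Within females the 4-group edgeR model called 103 of 17980 genes (0.573%), with 0.189% higher and 0.384% lower, and no member. Glra2 alone was at an unadjusted p under 0.05 (12.4% of all genes). Within males it called 279 genes (1.55%), with 0.517% higher and 1.03% lower, and no member. Slc6a9, Glra2 and Gldc were at an unadjusted p under 0.05 (14.3% of all genes). The log2 change of Glra2 was 0.22 in both sexes (SE 0.08 each, adjusted p = 0.25 and 0.192). That of Slc6a9 was -0.04 in females and -0.17 in males (SE 0.05 each, adjusted p = 0.827 and 0.15). The interaction of genotype and sex called 0 genes (0%), 665 (3.7%) at an unadjusted p under 0.05 and no member among those. The interaction of Slc6a9 was -0.13 (SE 0.07, unadjusted p = 0.101), so a difference between the sexes was not shown.

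For sex itself edgeR called 16 genes (0.089%), with 0.0389% higher and 0.0501% lower in males, and no member. Glra2 alone had an unadjusted p under 0.05 (8.95% of all genes), with a log2 difference of 0.19, male minus female (SE 0.05, adjusted p = 0.316). No other tool was run for the tests by sex.

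Other genes of glycine handling and of inhibitory synapses were read from the same fit, in 6 lists. Over the lists, 3 genes rose and 2 fell, and the 5.32% called over all genes is the background for each count. The partners of the glycine and GABA synapse came to 13 tested genes, with none called (also none by DESeq2 or limma voom, with Gad1 and Iqsec3 at an unadjusted p under 0.05) and a median log2 change of 0.06. Slc32a1, which loads both transmitters into vesicles, averaged 194 ± 13.3 CPM over WT and 196 ± 5.17 CPM over mutant mice (SD, n = 6 each; log2 change 0.02, SE 0.04). The GABA-making enzymes Gad1 (0.08, SE 0.03) and Gad2 (0.06, SE 0.03) had small log2 changes that did not pass (edgeR adjusted p = 0.188 and 0.348).

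**Figure D4:**
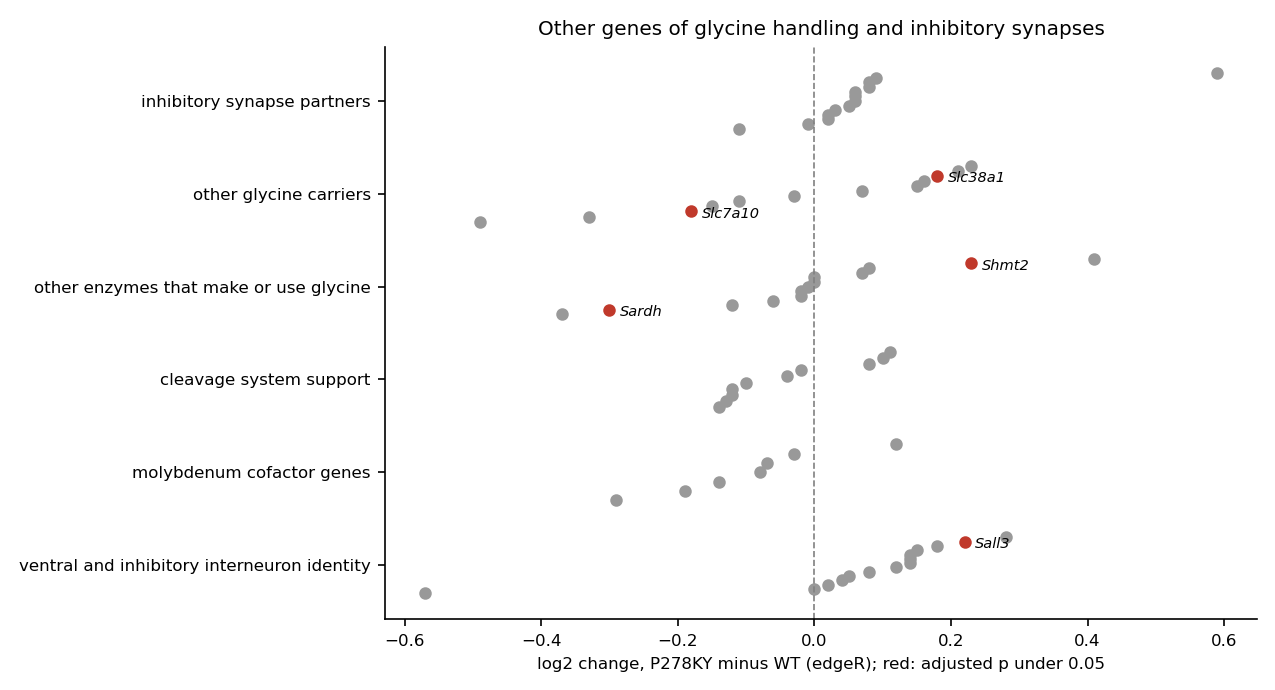
Log2 change between P278KY and WT mice (edgeR) of the tested genes in 6 lists of glycine handling and inhibitory synapses, 1 point per gene, red where the adjusted p was under 0.05. The named points are the 5 called genes, Slc38a1, Shmt2 and Sall3 higher and Slc7a10 and Sardh lower in P278KY mice.

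Among 12 tested carriers of glycine and like amino acids (Slc6a14 was too low to test), 1 rose and 1 fell, with a median of 0.02. Slc38a1, a sodium-coupled carrier of small neutral amino acids in neurons, rose from 326 ± 12.7 to 371 ± 20.9 CPM (SD, n = 6 each; log2 change 0.18, SE 0.04, edgeR adjusted p = 0.0213). Slc7a10, a carrier of glycine and serine in astrocytes and neurons, fell from 99.3 ± 8.69 to 87.3 ± 3.08 CPM (log2 change -0.18, SE 0.05, edgeR adjusted p = 0.0494). The call of Slc38a1 was lost without WT male 5, P278KY male 6, P278KY male 8 or WT male 12 (adjusted p of up to 0.0596). That of Slc7a10 was lost in 10 of the 12 fits with 1 mouse left out (all but those without WT female 1 or P278KY female 3, up to 0.107), and on log2(TPM + 1) values (-0.10, limma adjusted p = 0.308).

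Among 13 tested enzymes that make or use glycine (Tdh, Agxt, Agxt2 and Hao1 were too low to test), 1 rose and 1 fell, with a median of -0.01. Shmt2, the mitochondrial enzyme that makes glycine from serine and runs beside the cleavage system, was at 19.4 to 21.5 CPM in WT and at 22.0 to 26.3 CPM in P278KY mice. The ranges did not overlap, and Shmt2 rose 1.18-fold (log2 change 0.23, SE 0.05, edgeR adjusted p = 0.0121), a call kept in all 12 fits with 1 mouse left out and lost without mice 1, 2, 3 and 4, where the log2 change was 0.20 (adjusted p = 0.0879). It is a known target of ATF4 in the stress response to lack of amino acids. Its cytosolic counterpart Shmt1 averaged 3.19 ± 0.572 CPM over WT and 4.24 ± 1.30 CPM over mutant mice (SD, n = 6 each; log2 change 0.41, SE 0.19, edgeR adjusted p = 0.251). Sardh, which makes glycine from sarcosine, fell from 26.9 ± 2.18 to 22.0 ± 1.75 CPM (SD, n = 6 each; log2 change -0.30, SE 0.06, edgeR adjusted p = 0.018). Leaving out P278KY male 6 ended that call (adjusted p = 0.0535), as did log2(TPM + 1) values (-0.16, limma adjusted p = 0.445).

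The lists for support of the cleavage system and for the second role of gephyrin showed no call in edgeR. Of 10 genes that supply the shared dehydrogenase Dld and the lipoyl group of the Gcsh protein, none was called (none by DESeq2 or limma voom, with Glrx5 at an unadjusted p under 0.05), with a median of -0.07. Dld averaged 117 ± 3.52 CPM over WT and 115 ± 4.18 CPM over mutant mice (SD, n = 6 each). Of 7 genes of molybdenum cofactor, which gephyrin completes, edgeR called none, limma voom none and DESeq2 1 (Aox1 and Mocs2 at an unadjusted p under 0.05 in edgeR), with a median of -0.08.

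Among 14 markers of ventral and inhibitory interneurons, 1 rose and none fell, while DESeq2 and limma voom called 2 each. At an unadjusted p under 0.05 stood 3 of the 14, against 20.2% of all genes. A positive log2 change was found for 13, with a median of 0.13. Some of these lay near 0, such as Foxd3 (0.00), Gata2 (0.02) and Pax2 (0.04). The share of positive changes over all genes is not given here. Sall3, a zinc finger transcription factor gene, was at 26.4 to 28.5 CPM in WT and 30.1 to 33.7 CPM in P278KY mice, with no overlap (log2 change 0.22, SE 0.04, edgeR adjusted p = 0.00402). The exception in sign was Pvalb, which muscle also makes, at 58.9 to 409 CPM in WT and 57.2 to 151 CPM in P278KY mice (log2 change -0.57, SE 0.41, edgeR adjusted p = 0.496). Without mice 7, 10 and 11, the highest in ganglion RNA, no gene of the 6 lists was called. That fit of 9 mice called 87 genes higher and 166 lower. The log2 changes there were 0.21 for Shmt2 (edgeR adjusted p = 0.147), 0.19 for Sall3 (0.079), 0.22 for Slc38a1 (0.0746), -0.29 for Sardh (0.147) and -0.17 for Slc7a10 (0.184).

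The genes with the level pattern most like Slc6a5, by Pearson's r of log2 CPM over 12 mice, were Cpe (0.904), Pak1 (0.895), Ttyh1 (0.891), Gspt2 (0.889) and Srrm4 (0.885). None of these 5 was called for genotype. Those most like Gldc were Plxna1 (0.903), Gm13716 (0.882), Gm12394 (0.85), Ddx4 (0.847) and Tnr (0.83), again with none called. Those most like Glra2, chosen after its values were seen, were Tcf20 (0.968), D3Bwg0562e (0.947), Syt1 (0.945), Gprasp2 (0.931) and Bcl11a (0.931). All 5 of these were called as higher in P278KY mice, like Glra2 itself, with log2 changes of 0.12 to 0.28. These correlations are descriptions over the same 12 libraries and include the difference between genotypes. Genes chosen for likeness to Glra2 were therefore chosen in part for that difference, and their calls support nothing further.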

How the data were processed

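Whole spinal cord RNA of 12 mice was measured by sequencing of polyadenylated RNA with a stranded kit and paired reads of 75 bp, per the labels' protocols. Bowtie2 2.2.0 and RSEM 1.2.12 are named in the submitters' processing notes. Their genome build and annotation were not stated in the sources used here. The authors deposited 1 gene table per mouse with RSEM expected counts, in which reads that match several genes are shared, and TPM, scaled by length and to 1000000 per library, per the file headers. The deposited FPKM values were not used for tests.

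Expected counts were rounded. Genes were kept by filterByExpr over the 4 groups and libraries were scaled by TMM factors. The test was glmQLFTest of edgeR 4.0.16 (robust, R 4.3.3) on sex and genotype. Fits within sexes and of the interaction used 4 group means. P values were adjusted over all 17980 genes. SE is the log2 change over the root of F. Alternatives used DESeq2 1.42.0 and limma 3.58.1. The steps were tested on simulated data from these libraries. There edgeR recovered 12 of 67 genes changed 1.2-fold (17.9%), 46 of 67 changed 1.5-fold (68.7%) and 55 of 66 changed 2-fold (83.3%). Of its 116 calls, 3 were false. Most changes of 1.2-fold were thus missed there. The simulation gave 116 calls against 956 in the data, which sets a different cutoff on p, so these shares may not carry over. A gene that did not pass is not shown to be unchanged. No column without a mouse was used. Positions are from GENCODE M21 (GRCm38) by gene identifier.

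The members and lists were chosen with earlier results of these data known. All 10 members, fixed genes of the lists (Slc32a1, Gad1, Gad2, Dld, Shmt1, Shmt2) and up to 4 called genes per list were named, with the 5 genes most like Slc6a5 and Gldc. The likeness lists of Glra2 and Gcsh and other names outside that rule were chosen after their values were seen. A further gene of that rule is not reported here. A planned comparison of protein sequences was not made, since protein sequences were not used here. Each library is 1 mouse per the labels. No 2 libraries held identical values. Gldc had the fewest counts of the members, 92 to 249 per library, and an SE of 0.11, while Gcsh, at 942 to 1466 counts, had an SE of 0.13.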

Additional observations from a re-analysis of the deposited data

Results flagged for a closer look

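Of 46 groups of 6 mice tested for a value far from the rest, 3 held one, 6.52%, and chance flags about 1 in 20. Slc6a5 was at 132 TPM in P278KY female 3, far below the other 5 mutants. Glra3 was at 9.85 TPM in P278KY male 6, far above the other 5 mutants. Shmt2 was at 21.5 CPM in WT male 5, far above the other 5 WT mice, and still below the lowest mutant at 22.0 CPM.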

How the results depend on the processing

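No paired analysis was possible because the mouse numbers in the labels are not shared between groups. For all genes, 425 were higher and 531 lower. The counts were 717 and 900 with DESeq2's Wald test, 641 and 826 with limma voom, 1358 and 248 on log2(TPM + 1), 1374 and 248 on log2(TPM + 0.1), 201 higher without mice 1, 2, 3 and 4, and 87 and 166 without mice 7, 10 and 11. With 1 mouse left out they ranged from 230 to 572 and from 312 to 813. Members called, 1 of 10, became 2 with limma voom and on both TPM scales. They became 0 with no filter, with no sex term, with a term for mice 9 to 12, without mice 1, 2, 3 and 4, and without mice 7, 10 and 11, and were 0 to 2 with 1 mouse left out. The log2 change of Glra2 kept its sign in all 24 alternatives. It was 0.22 with no filter, no sex term or a term for mice 9 to 12 (adjusted p = 0.0624, 0.0901 and 0.0577), 0.20 without mice 1, 2, 3 and 4, 0.21 without mice 7, 10 and 11, and 0.19 to 0.24 with 1 mouse left out. The sign of Gphn, at a log2 change of 0.00, turned on both TPM scales (0.07), with the term for mice 9 to 12 (0.00), without mice 1, 2, 3 and 4 (0.02), and in 5 of 12 fits with 1 mouse left out (-0.02 to 0.01 over the 12). That of Glrb turned on both TPM scales (0.05). The other 8 members kept their sign in all alternatives. Over the 6 lists, 3 higher and 2 lower became 10 and 0 on both TPM scales and 0 and 0 without mice 7, 10 and 11. The lower count was 1 with no filter or no sex term, and with 1 mouse left out the counts were 2 to 4 and 0 to 3. Fewer mice or more genes tested set part of these moves by construction, and otherwise the cause was not tested.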
